A study of Homo sapiens with 3 samples.

Results

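The strong HDAC1 sites of untreated HepG2 cells are the 585 peak summits of the control library with a score of 10 or more on chromosomes 1 to 22 and X. They are 6.37% of the 9185 control summits on those chromosomes, and the whole control list holds 9476. HepG2 is a human hepatocellular carcinoma cell line. CUT&Tag sequences DNA cut by a transposase that is held at an antibody on the chromatin. The 3 libraries, all labelled WT, came from cells given H89, from cells without H89 (the control), and from cells without H89 in which IgG took the antibody's place. H89 inhibits the kinase PKA, and the labels state neither its dose nor its duration. Each condition had 1 library, so no difference below has a replicate check or a test. Only the title of the series names HDAC1. No values of the IgG library were analysed here, so no antibody background was set against the sites. Whether that library gave the background of the scores is not stated.

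HDAC1 is a class I histone deacetylase. It removes acetyl groups from histone tails, acts as the catalytic subunit of the NuRD, Sin3 and CoREST corepressor complexes, and is known to sit at active as well as silent regulatory regions. PKA phosphorylates many nuclear proteins when cAMP rises, among them the activator CREB. The question is whether HDAC1 sits at the same places in cells given H89. The labels give no measure of PKA activity. Sites are given as single bases on hg19 with their chromosome band. They were not assigned to genes, because the gene and promoter tables at hand describe another build.

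The score is read as the −log10 of a Poisson p-value, and it has a simple structure. Of the 585 strong sites, 578 (98.8%) had a score that matched the −log10 upper-tail probability of 1 particular whole count over 1 particular background mean. That number is the count of the site in what follows. Whether it is the number of overlapping fragments or a scaled and rounded number is not stated. The probability is taken as that of the count or more. Taken as that of more than the count, every count would be 1 lower. Ratios and intervals of counts would then change, which was not examined. The sites were chosen by their control score, so their control scores and counts are a description. At the lowest background mean, 0.0269, a count of 5 gives a score of 9.94 and a count of 6 gives 12.3. The minimum of 10 therefore falls between them, with 274 control summits at the first step and 129 strong sites at the second. Just inside the minimum were summits at 75746576 of chromosome 15 and 127962923 of chromosome 9 (both 10.01) and at 16983718 of chromosome 1 (10.2). Just outside, 12 summits scored 9.998, among them 36866932 of chromosome 1, 24740566 of chromosome 14 and 1666628 of chromosome 17.

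Most strong sites rested on few counts. The control score had a median of 12.9, quartiles of 12.3 and 16.2 and a highest value of 76.5. The control count ranged from 6 to 50 with a median of 7. It was exactly 6 at 195 of 578 sites (33.7%), 7 or 8 at 178, 9 to 12 at 122, 13 to 19 at 61, and 20 or more at 22 (3.81%). A count of 6 has an exact Poisson 95% interval of 2.20 to 13.1, so the order of sites near the minimum is poorly determined. That interval covers counting error only and assumes that the count is of independent molecules. The scores took only 106 distinct values, and 255 of the 585 sites shared the 3 commonest.

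The background mean sorted the strong sites into 3 kinds. At 265 of 578 sites (45.8%, exact Clopper-Pearson 95% interval 41.7 to 50.01) it was the lowest mean of the list. At 278 it was a multiple of a small local step, and at 35 (6.06%, interval 4.25 to 8.32) it was a whole number, 1 or more. Among the other control summits 41.7% were at the lowest mean, 51.7% at a local mean and 6.58% at a whole number. Among the 3253 control summits scoring from 5 up to 10, next below the strong sites, 64.0% of the 3229 with a count were at the lowest mean. The 35 whole-number sites had a median count of 16, against 7 at the lowest mean, because a higher mean needs more counts for the same score. The site with the most counts was at position 112812500 of chromosome 2 in 2q13, with 71 counts with H89 and 50 in the control over a mean of 11 in both libraries. Its scores were 32.7 with H89 and 17.1 in the control, below those of many sites with fewer counts.

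Nearly every strong HDAC1 site had a called summit close by in H89-treated cells. Within 1000 bp there was one at 584 of the 585 (99.8%, interval 99.1 to 99.996), against 96.3% (3134 of 3253, interval 95.6 to 97.0) of the control summits scoring from 5 up to 10. It was 86.6% (7448 of 8600) of all the other control summits and 87.4% of all control summits on these chromosomes. The exception was position 88999893 of chromosome 16 in 16q24.3, with a score of 14.7 and a count of 7. Its nearest H89 summit was 76.6 kb away and scored 3.87. The partner scored 10 or more with H89 at 516 of the 585 sites (88.2%, interval 85.3 to 90.7), which compares with 16.2% of those scoring from 5 up to 10 and 11.8% of all control summits. The cut of 10 that chose the sites is used again on the partner, so this comparison is a description. The partner scored 5 or more at every one of the 584 paired sites, and the lowest H89 score was 5.86. Only 5 sites (0.855%) had more than 1 H89 summit within 1000 bp, against 2.03% of those scoring from 5 up to 10 (intervals 0.278 to 1.98 and 1.57 to 2.57) and 2.91% of all the others.

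The summits of the 2 libraries lay closer together at strong sites than elsewhere. The distance to the H89 summit had a median of 31 bp at strong sites (interval of the median 29 to 35, quartiles 14 and 61) and of 58 bp at other paired control summits (56 to 60). At those scoring from 5 up to 10 it was 46 bp (44 to 48). It was at most 50 bp at 396 of 584 strong sites (67.8%, interval 63.9 to 71.6), at 52.9% of those scoring from 5 up to 10 (51.1 to 54.6) and at 45.5% of all the others (44.4 to 46.6). Distances over 200 bp occurred at 24 strong sites (4.11%) and at 16.02% of the others. The exact position of the summit did not enter the choice of sites. These intervals do not overlap, but they cover counting error only. The control count moved with the distance, with a median of 7 at strong sites, 4 at those scoring from 5 up to 10 and 3 at all the other control summits, and its part in the distance was not tested. The shift had no side: the H89 summit lay at the higher coordinate at 278 sites, at the lower at 291 and on the same base at 15.

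**Figure D1:**
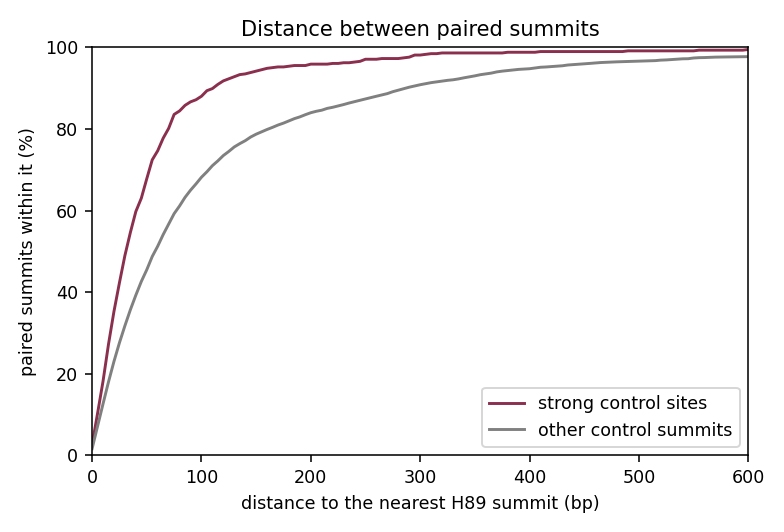
Cumulative percentage of paired control summits (vertical axis) whose nearest H89 summit lies within the distance on the horizontal axis, in bp, for strong sites and for other control summits. The strong sites reach their median at 31 bp and the others at 58 bp, and the curve of the strong sites lies to the left.

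The highest sites lay closest to their partners. The median distance was 22 bp (interval 18 to 30) at the 62 sites with a control score of 20 or more, 33.5 bp from 15 up to 20, 35 bp (29 to 42) from 12 up to 15 and 30 bp (21 to 38) from 10 up to 12. Within 50 bp lay 90.3% of the sites of 20 or more (interval 80.1 to 96.4), against 67.9% (58.2 to 76.7), 62.7% (56.8 to 68.3) and 68.2% (59.4 to 76.1) in the same order of classes. The interval of the highest class lies apart from those of the other 3, which overlap. Among the 15 sites with both summits on the same base, the 3 with the highest control scores were at 24584104 of chromosome 14 in 14q11.2, 12377456 of chromosome 18 in 18p11.21 and 16366607 of chromosome 16 in 16p13.11. The 5 largest distances were 677 bp at 7118260 of chromosome 17 in 17p13.1, 666 bp at 75660528 of chromosome 15 in 15q24.2, 639 and 598 bp at 16992910 and 17067496 of chromosome 1 in 1p36.13, and 554 bp at 54673691 of chromosome 12 in 12q13.13. Both 1p36.13 sites had whole-number background means, and the other 3 were at the lowest mean or 2 local steps with 6 to 8 counts.

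Scores of the strong sites were more often higher with H89 than lower. The H89 score exceeded the control score by over 0.1 at 350 of 584 pairs (59.9%, interval 55.8 to 63.9). It was lower by over 0.1 at 119 (20.4%), and 115 (19.7%) were within 0.1. By rank within each list the direction was the reverse, with 31.7% ranking higher with H89 (interval 27.9 to 35.6). The rule took the sites from the top of the control ranks, the H89 list is longer, and no rank share over all pairs is given. By score, over all 8032 paired control summits, 50.0% were higher and 14.5% lower. Among the pairs outside the strong sites 36.7% were within 0.1. Of pairs scoring from 5 up to 10 in the control, 45.1% were higher, 20.2% lower and 34.7% within 0.1. Strong sites thus had fewer ties. Of pairs that differed by more than 0.1, 74.6% (interval 70.4 to 78.5) were higher with H89 at strong sites and 77.8% (76.6 to 79.0) elsewhere, with overlapping intervals. The H89 score had a median of 15.2 and the control score 12.9, and the median difference was 2.33 (quartiles -0.03 and 4.97). The control score is 1 of the 2 values compared and also chose the sites, so these figures are given without a test.

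**Figure D2:**
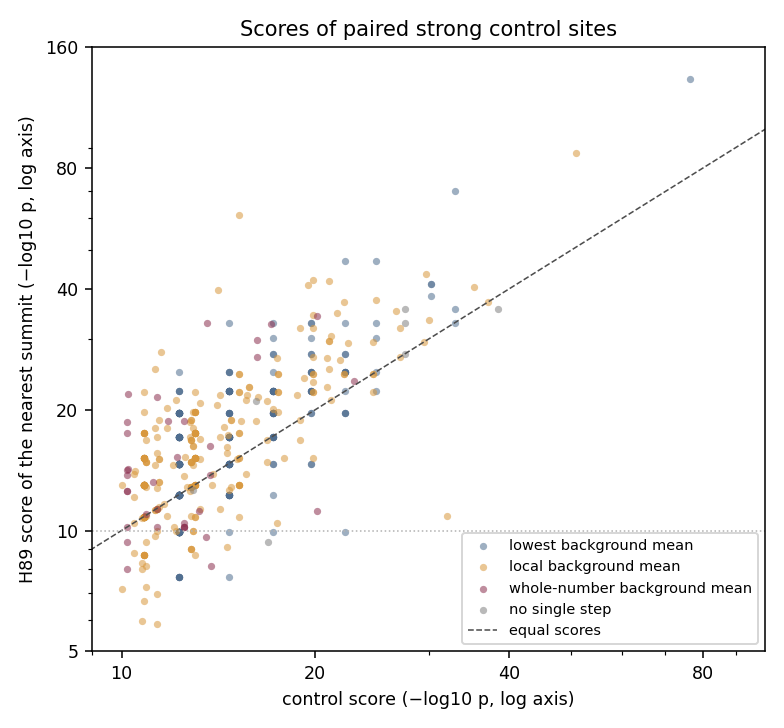
H89 score of the nearest summit (vertical, log axis) against control score (horizontal, log axis) for the 584 paired strong sites, each point a site coloured by its background mean in the control. The dashed line marks equal scores and the dotted line an H89 score of 10, above which 516 sites lie; the vertical strips are the few scores that the counts allow.

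In counts the difference was small. At the 571 pairs where both scores matched 1 step, the count was higher with H89 at 348 (60.9%), lower at 105 (18.4%) and equal at 118 (20.7%), beside 50.3% higher and 12.1% lower over all paired control summits. The median ratio of counts, H89 over control, was 1.14 (quartiles 1 and 1.29). Summed over these sites the counts were 5949 with H89 and 5128 in the control, a ratio of 1.16, and outside the strong sites 31734 and 26875, a ratio of 1.18. The 195 sites with 6 control counts had a median of 7 with H89, and ranged from 4 to 11. Of these, 103 were higher with H89, 53 equal and 39 lower. The libraries may differ in depth, which is unknown, so a difference in depth and a difference in occupancy cannot be told apart here.

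**Figure D3:**
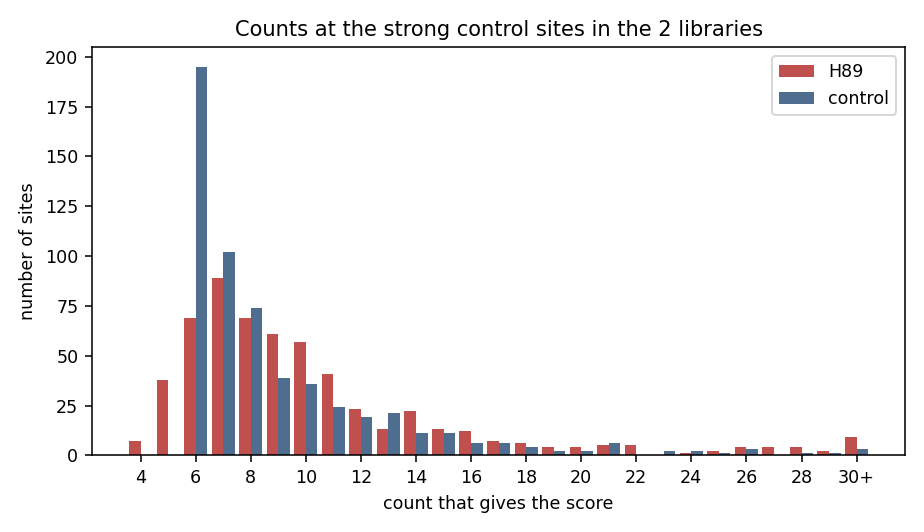
Number of strong sites (vertical axis) at each count that gives the score (horizontal axis, 30 or more pooled), for 571 sites with a count in both libraries, H89 bars left of control bars. The control counts begin at 6, which the minimum score fixes, while the H89 counts begin at 4.

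At almost every single site the counting intervals of the 2 libraries overlapped. The exact Poisson 95% intervals of the 2 counts were apart at 1 of the 571 sites, which was higher with H89, and at 0.0127% of all paired control summits. None of the 571 had a lower count with H89 and intervals apart (0.00% of all paired control summits). The 1 site was at 1092925 of chromosome 10 in 10p15.3. It had 26 counts and a score of 61.0 with H89, 115 bp away, against 8 counts and a score of 15.2 in the control. The background mean was 2 local steps in both libraries. Sites that differ within these intervals are not shown to be alike. Keeping 2 separate intervals apart is a stricter rule than a test of the difference, and no such test was run.

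The background mean itself was nearly always the same in both libraries. At 537 of 571 strong pairs (94.0%, interval 91.8 to 95.8) the 2 scores rested on the same multiple, against 94.7% of the pairs scoring from 5 up to 10 (93.8 to 95.4) and 90.2% (89.4 to 90.8) of all the other pairs. At sites with the lowest mean in the control it was the lowest with H89 at 261 of 261, at those with a local mean the multiple was the same at 251 of 276, and at those with a whole-number mean at 25 of 34. At the 537 pairs with the same mean, 329 (61.3%) had more counts with H89, 96 fewer and 112 as many. A score difference of over 0.1 at these sites is therefore a difference in count.

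The median score difference was larger at higher control scores, while the median count ratio was similar. The classes are cut on the control score, which is also 1 of the 2 values compared. Of the 129 sites scoring from 10 up to 12, 58.9% scored higher in treated cells and 17.8% lower. The 287 paired sites from 12 up to 15 had 54.4% higher and 24.04% lower. The 106 sites from 15 up to 20 had 70.8% higher and 17.0% lower, and the 62 sites of 20 or more had 69.4% higher and 14.5% lower. Intervals of the share higher were 49.9 to 67.5 from 10 up to 12 and 48.4 to 60.2 from 12 up to 15. At 20 or more the interval was 56.3 to 80.4, and these 3 overlap. Over all 168 sites of 15 or more the share was 70.2% (62.7 to 77.0). That interval lies above the one from 12 up to 15 and overlaps the one from 10 up to 12. The median score difference was 2.15, 2.20, 3.86 and 4.54 in these 4 classes. In counts, the share of sites higher with H89 was 61.2%, 55.1%, 71.6% and 70.2% in the same order, and the ratio of summed counts was 1.15, 1.12, 1.21 and 1.197. The median count ratio was 1.17, 1.14, 1.17 and 1.12, and 1.17, 1.14, 1.17 and 1.15 at pairs with the same background mean. For a fixed ratio of counts the score difference is larger at higher counts.

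Among the highest sites the H89 scores spread widely. The highest of both libraries, at 169240780 of chromosome 6 in 6q27, scored 133.1 with H89 and 76.5 in the control, from 47 and 29 counts at the lowest background mean. At 62573492 of chromosome 20 in 20q13.33 the scores were 87.5 with H89 and 50.8 in the control, from 41 and 26 counts. At 47604530 of chromosome 21 in 21q22.3 the counts were 27 with H89 and 14 in the control. These 3 sites had the 3 highest H89 scores of the whole list. Even their count intervals overlapped, as at 6q27, where they were 34.5 to 62.5 with H89 and 19.4 to 41.6 in the control.

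Other top sites differed less. At 105219236 of chromosome 14 in 14q32.33 both libraries had 17 counts, and at 80445038 of chromosome 15 in 15q25.1 both had 14. At 16872197 of chromosome 1 in 1p36.13 both had 14 counts as well. The site at 46636463 of chromosome 2 in 2p21 scored 35.6 with H89 and 38.5 in the control. At 24584104 of chromosome 14 the counts were 29 with H89 and 26 in the control, over 20 local steps. Of the 20 highest control sites, 13 scored higher with H89, 5 were within 0.1 and 2 scored lower, at 2p21 and 9p11.2.

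**Figure D4:**
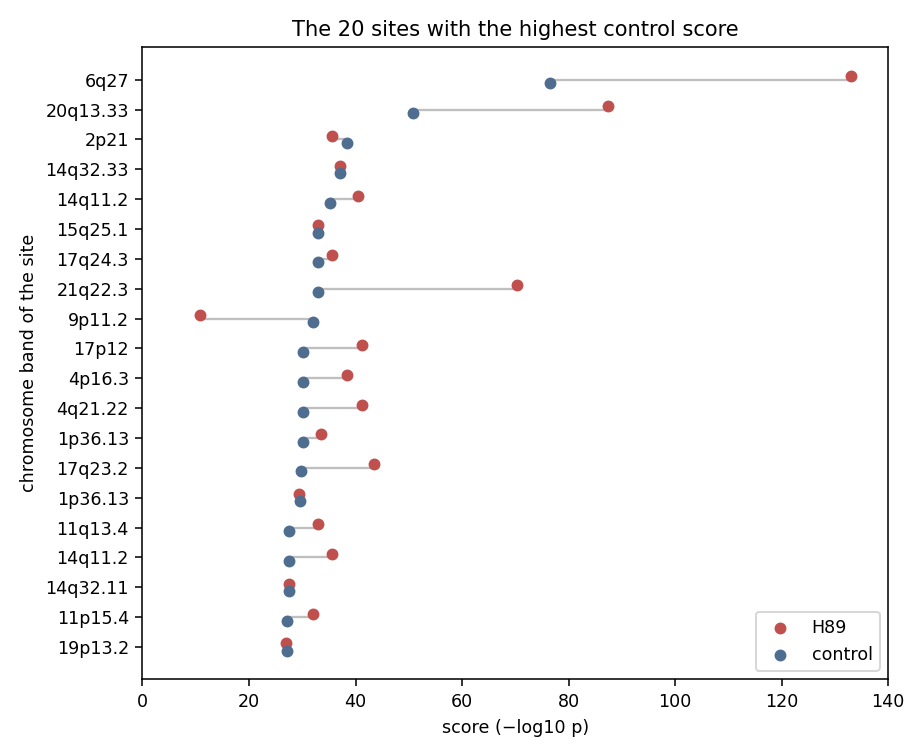
Scores (−log10 p, horizontal axis) of the 20 sites with the highest control score, by chromosome band from the highest downwards, with H89 and control points joined by a line. The largest gaps are at 6q27 (133.1 with H89, 76.5 in the control) and 21q22.3 (70.4 and 32.9), and at 9p11.2 the H89 point lies far below (10.9 and 32.0).

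The 5 largest rises of score with H89 were at 6q27, 10p15.3, 21q22.3 and 20q13.33, the last band holding 2 of them. The second 20q13.33 site, at 61592572, had 25 counts with H89 and 11 in the control (scores 39.8 and 14.1). The 5 largest falls were all smaller than these, with score differences (H89 minus control) of -21.1 to -7.25. At 45119971 of chromosome 9 in 9p11.2 the count was 7 with H89 and 17 in the control (scores 10.9 and 32.0), with the summits 5 bp apart and 4 local steps of background in both. At 101874549 of chromosome 15 in 15q26.3 it was 5 with H89 and 10 in the control. At 139916629 of chromosome 9 in 9q34.3 it was 5 with H89 and 8 in the control. The site at 16992910 in 1p36.13 scored 11.21 with H89 and 20.1 in the control, where the background mean was 2 with H89 and 1 in the control. The site at 35016463 of chromosome 14 in 14q13.1 scored 9.36 with H89 and 16.9 in the control.

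The strongest sites kept only part of their order. Of the 585 strong control sites, 409 (69.9%, interval 66.0 to 73.6) had a partner among the 585 highest H89 summits of the same chromosomes, ties included. Of the top 100 control sites, 79 had a partner among the top 100 H89 summits, and of the top 10 it was 3. Ties are frequent in scores with so few values, so these numbers depend on how ties fall.

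Strong HDAC1 sites were spread over 300 of the 851 bands of these chromosomes, and 166 bands held exactly 1. Pale bands, here the Giemsa-negative ones plus the positive class that stains most weakly, are known to be gene-rich and make up 49.6% of the banded length. They held 433 strong sites (74.0%, interval 70.3 to 77.5), 76.1% of those scoring from 5 up to 10 (74.5 to 77.5) and 78.2% of all the other control summits (77.3 to 79.0). The intervals overlap. Giemsa-negative bands held 0.289 strong sites per Mb and the darkest bands 0.0502. As a share of the control summits in a band class, strong sites made up 6.18% (5.58 to 6.82) in Giemsa-negative bands, 5.37% (4.14 to 6.85) in the palest positive class, 7.06% in the next class, 8.26% (6.15 to 10.8) in the one after it and 7.31% (4.79 to 10.6) in the darkest. In centromeric bands there were 3 strong sites among 34 control summits. Within 2 Mb of a chromosome end lay 48 strong sites (8.21%), against 8.31% of the other control summits, and within 2 Mb of a centromere 16 (2.74%), against 2.78%.

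Chromosomes differed in how many of their control summits were strong. The share was highest on chromosome 14, with 38 of 334 (11.4%, interval 8.18 to 15.3), and lowest on chromosome 13, with 1 of 119 (0.840%, interval 0.0213 to 4.59). Neither interval overlaps that of all 23 chromosomes (6.37%, interval 5.88 to 6.89), though both chromosomes were picked here for their values out of 23. Chromosome 20 followed with 39 of 437 (8.92%), then chromosome 2 with 62 of 759 (8.17%) and chromosome 16 with 50 of 618 (8.09%). The number of copies of each chromosome in these cells was not examined, and its part in these shares was not tested. At the low end were chromosome X (3 of 127), chromosome 21 (2 of 79) and chromosome 22 (8 of 252). More strong sites scored higher than lower with H89 on each of the 23 chromosomes, but chromosomes 13, 21 and X held only 1, 2 and 3. All 23 come from the same 2 libraries, where 50.0% of all paired control summits were higher and 14.5% lower. As a share of the sites that differed, the balance was closest on chromosome 14, with 17 higher, 14 lower and a median count ratio of 1.04. On chromosome 8 there were 14 higher and 1 lower, and on chromosome 12 there were 12 higher and 1 lower.

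**Figure D5:**
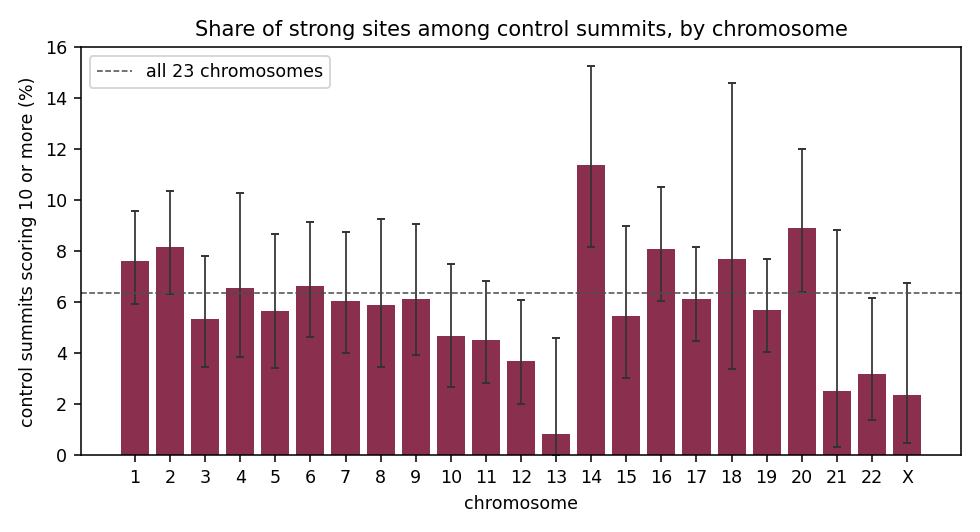
Percentage of the control summits of each chromosome that score 10 or more (vertical axis), with exact 95% intervals as error bars and the value for all 23 chromosomes, 6.37%, as a dashed line. Chromosome 14 stands highest at 11.4% and chromosome 13 lowest at 0.840%.

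The 10 bands richest in strong sites held 78 of them (13.3%), with 7.38% of all control summits and 1.79% of the banded length. Band 19p13.3 had 13 among 139 control summits. Bands 14q11.2, 14q12 and 1p36.13 had 9 each, among 60, 30 and 37 control summits. The strong share had an interval of 7.10 to 26.6% in 14q11.2, 14.7 to 49.4% in 14q12 and 11.8 to 41.2% in 1p36.13. Band 14q12 is of the darkest class. Bands 16p13.3 and 19q13.2 had 7 each, among 103 and 51 control summits. Bands 16p11.2, 17q25.1, 1p34.1 and 20q13.13 had 6 each, a number shared by 2p21, 2p24.1 and 7q22.1. Among the bands with 6, the interval was 8.62 to 42.3% in 1p34.1 and 8.30 to 41.0% in 2p24.1. In these 5 bands of the 13 named it lay above that of all 23 chromosomes, though the bands were picked for their counts. In 16p11.2 all 6 scored higher with H89 (median difference 6.94), in 19q13.2 it was 6 of 7 with none lower, and in 1p36.13 it was 3 higher and 4 lower.

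On chromosome 14 many strong sites lay in 2 neighbouring bands. These bands were picked for their many strong sites, so the comparison with the rest of the chromosome is a description. Bands 14q11.2 and 14q12 together held 18 strong sites among 90 control summits (interval of the share 12.3 to 29.8%), and the rest of the chromosome 20 among 244 (8.20%, interval 5.08 to 12.4). Across the boundary of the 2 bands, 7 strong sites lay within 213 kb, from 24563632 to 24777033, each less than 100 kb from the next. That was the longest such run. The site at 24584104 scored 40.5 with H89 and 35.3 in the control, and the site at 24616271 scored 15.2 with H89 and 17.9 in the control. In this pair of bands 17 sites had a count, and each had a local or whole-number background mean, none the lowest. Of the 18 sites, 10 scored higher with H89 and 7 lower.

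The next longest run was 6 strong sites within 205 kb in 1p36.13, from 16872197 to 17077021 on chromosome 1. All 9 strong sites of that band had a local or whole-number background mean. At 17077021 the counts were 25 with H89 and 23 in the control. At 17067496 they were 18 with H89 and 20 in the control, over a mean of 2 in both. Runs of 4 lay in 16p13.3, from 4994926 to 5148092, and in 2p24.1, from 20779086 to 20875885. Of all runs linked by gaps of up to 100 kb, 463 were a single strong site, 43 held 2 and 5 held 3.

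The median distance to a neighbouring control summit was similar at strong sites and at all the others, but fewer strong sites had a neighbour within 1 kb. The distance to the nearest other control summit had a median of 28.9 kb at strong sites (interval of the median 24.7 to 35.0), 36.4 kb at those scoring from 5 up to 10 (33.4 to 39.3) and 28.8 kb at all the others (27.4 to 30.1). Another control summit lay within 5 kb of 106 strong sites (18.1%, interval 15.1 to 21.5), of 16.9% of those scoring from 5 up to 10 (15.7 to 18.3) and of 21.3% of all the others (20.5 to 22.2). Within 1 kb it was 8 strong sites (1.37%, interval 0.592 to 2.68), 2.09% of those scoring from 5 up to 10 (1.63 to 2.64) and 3.93% of all the others (3.53 to 4.36). The interval of the strong sites within 1 kb overlaps that of the class next below them and lies below that of all the others. No 2 strong sites lay within 1 kb of each other, and the median distance from a strong site to the nearest other strong site was 669 kb.

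The tightest pair of strong sites was 2.66 kb apart in 20q13.13. At 48922821 the score was 22.2 with H89 and 24.6 in the control, and at 48925480 it was 18.87 with H89 and 18.90 in the control. The next pairs were 3.31 kb apart in 20q11.21 (30195278 and 30198587), 5.54 kb in 14q12 (24610729 and 24616271), 5.59 kb in 2p24.1 (20779086 and 20784671) and 7.57 kb in 1p34.1 (45265742 and 45273309). Within a pair the 2 scores did not always differ in the same direction. At 20779086 the score was 24.8 with H89 and 19.7 in the control, and at 20784671 it was 12.3 with H89 and 14.7 in the control.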

How the data were processed

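CUT&Tag libraries of HepG2 cells were analysed from 2 lists of peak summits, matched to the samples by the peak names. The authors deposited 1-bp summits, each with a score that its values show to be −log10 of a Poisson p-value. Per the submitters' processing notes, Bowtie 0.12.2 and hg19 were used. The sources used here do not name the peak caller, its input library, its threshold or read filters. Duplicates or multiply mapping reads, if kept, would raise counts. Depth is unknown.

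Each strong site was paired with the nearest H89 summit within 1000 bp. Differences up to 0.1 counted as equal. Poisson means were fitted to steps of 2 to 8 counts in each list: a lowest mean, and a local step of 0.0236 in the control and 0.0238 with H89. Scores were matched to counts over the lowest mean, multiples of the local step (2 to 20, then multiples of 10 to 100) or whole numbers to 30, within 0.0001 plus 1e-05 of the score. Where several steps or none matched, as at 7 strong sites, no count is given. Functions were tested on simulated data. Bands came from circlize 0.4.16. Intervals of shares are Clopper-Pearson 95%, those of medians from order statistics. Sites named are the 20 highest, the extremes of difference, distance and spacing, and the 10 richest bands. The sites, lists and rules were chosen with earlier results of these data known, and the reading of counts after seeing the files. Python 3.11.15, numpy 2.4.6, pandas 2.3.3, scipy 1.17.1, matplotlib 3.10.9 and R 4.3.3 were used.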

Additional observations from a re-analysis of the deposited data

Results flagged for a closer look

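Outside chromosomes 1 to 22 and X, 30 further control summits scored 10 or more, a signal that the comparisons above leave out. They were 10.3% (interval 7.06 to 14.4) of the 291 control summits there. On the alternative haplotypes of chromosome 6 lay 21 of them, on 7 contigs, with a median score of 14.8 with H89 and 12.3 in the control, 17 being higher with H89. The other 9 had a highest control score of 31.8, and 4 of them were higher with H89. These haplotype contigs are alternative versions of a stretch of chromosome 6, so sites on them are not independent.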

How the results depend on the processing

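Merging strong sites within 500 bp changed nothing because no 2 lie that close, and taking the highest-scoring H89 summit or mutually nearest summits only left 584 pairs and identical values, so these settings say nothing about stability. A pairing distance of 100 bp gave a partner at 87.9% of strong sites and one scoring 10 or more at 79.0%, with a median distance of 27 bp, and 500 bp gave a partner at 98.97%. With a minimum control score of 8, 71.3% had a partner scoring 10 or more. With a minimum of 15, and with one of 20, all sites had a partner (100%). With a minimum of 15, 70.2% of pairs scored higher with H89, the median difference was 4.20, and 98.2% had a partner scoring 10 or more. With a minimum of 20 these were 69.4%, 4.54 and 98.4%, and the median distance was 22 bp. Counted by rank from the top of each list, the direction reversed and 31.7% ranked higher with H89 (interval 27.9 to 35.6). The lists are of unequal length, the sites were chosen from the top of the control list, and the cause of the reversal was not tested. Among the same number of top H89 summits the partner share was 69.9%. Another control summit lay within 1 kb of 1.37% and within 20 kb of 41.4%. Of 75 recomputed values, 57 stayed within the interval of the main value, but 22 of these were identical by value and number of sites. The cause of the shifts at higher minimum scores was not tested. Without chromosome 14, 61.0% of pairs scored higher with H89. No paired analysis was possible because each condition has 1 library, so the planned replicate block has no value. The count-based alternatives, pairs with the same mean and chromosome 14 were added after seeing the data. Unknown depth and small counts limit every value.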

Other observations

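The lowest background mean divided by the local step was 1.1372 with H89 and 1.1372 in the control, with both means fitted separately in each list. Whether 1 background library served both lists was not tested. Counts and means matched 1 step at 97.9% of all 11553 H89 summits and 99.3% of all 9476 control summits.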
